A study of Mus musculus with 8 samples.

Results

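Of the 20558 small RNAs listed in the testis count table, 144 are entered as small nuclear RNAs (snRNAs), and these were followed in every mouse. They were taken by the class the table gives them. Their family was read from the mouse Ensembl name of the transcript, which gave 45 rows of U1, 30 of U2, 10 of U4, 9 of U5, 32 of U6, 3 of U7, 1 of U11, 4 of U12, 1 of U4atac and 3 of U6atac. The other 6 rows carry a name of the non-coding RNA database that shows no family.

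The RNA came from testes of adult C57Bl/6 males. The 4 SD mice, on a standard diet, are M1N, M2N, TN1 and TN2, and the 4 WD mice, on a Western-like diet, are M1W, M2W, M3W and M5W. The labels give the same account for all 8 mice, controls included: a diet rich in lipids from 4 weeks of age and mating at 4 months. The diet of a mouse was therefore taken from its name and its control or experimental status. Each sample is whole testis, so that fewer cells of a type and less RNA per cell cannot be told apart. Control mice have names starting with M and with TN, and what the letters stand for is not given in the sources used here. Since all WD mice are named M, the diets were also compared against each pair of SD mice.

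Spliceosomal snRNAs are short, stable nuclear RNAs that bind proteins and remove introns from messenger RNA precursors. U1 pairs with the start of the intron, U2 with its branch point, and U4, U5 and U6 join as a tri-snRNP, in which U6 comes to form the catalytic core and U5 holds the exons. U11, U12, U4atac and U6atac, with U5, do the same for the rare minor introns, whereas U7 is not spliceosomal and directs the end processing of histone messenger RNAs. Most families have many genomic copies, and most copies of U1, U2 and U6 are thought to be pseudogenes.

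For families other than U5 and U6, the most abundant row is shown to place the parts of the molecule by which it works. Capitals mark the bases that pair with the start of the intron in U1.124 and in U6atac.12, the branch point pairing bases in U2.10, and the binding site of the Sm proteins in U4.12, U12.3, U11.4, U4atac.1 and U7.85. Sequences are of NCBIM37, read 5′ to 3′ on the strand of the transcript.
U1.124: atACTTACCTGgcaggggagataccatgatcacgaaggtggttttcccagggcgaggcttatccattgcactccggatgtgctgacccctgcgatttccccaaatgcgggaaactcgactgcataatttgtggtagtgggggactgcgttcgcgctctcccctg
U2.10: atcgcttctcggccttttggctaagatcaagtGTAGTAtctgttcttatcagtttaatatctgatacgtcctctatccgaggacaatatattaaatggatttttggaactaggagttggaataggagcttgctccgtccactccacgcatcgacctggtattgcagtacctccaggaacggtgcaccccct
U4.12: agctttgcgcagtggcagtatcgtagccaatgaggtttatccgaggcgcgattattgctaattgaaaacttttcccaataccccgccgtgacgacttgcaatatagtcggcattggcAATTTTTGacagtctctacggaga
U7.85: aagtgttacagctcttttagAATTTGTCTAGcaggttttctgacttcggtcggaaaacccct
U11.4: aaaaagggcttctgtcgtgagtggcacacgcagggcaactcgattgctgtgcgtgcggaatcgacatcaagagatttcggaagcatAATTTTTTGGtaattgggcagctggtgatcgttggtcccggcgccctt
U12.3: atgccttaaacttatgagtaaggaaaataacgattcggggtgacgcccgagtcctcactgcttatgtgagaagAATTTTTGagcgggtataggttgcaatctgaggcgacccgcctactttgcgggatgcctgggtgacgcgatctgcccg
U4atac.1: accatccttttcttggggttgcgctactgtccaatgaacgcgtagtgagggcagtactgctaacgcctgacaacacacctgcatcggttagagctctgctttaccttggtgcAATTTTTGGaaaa
U6atac.12: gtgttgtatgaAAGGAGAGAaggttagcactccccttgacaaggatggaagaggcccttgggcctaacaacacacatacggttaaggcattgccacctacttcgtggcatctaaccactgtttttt

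These rows lie at chr12:55815205-55815368 (U1.124, plus strand), chr11:83085000-83085190 (U2.10, plus), chr5:115939468-115939608 (U4.12, plus), chr6:124691243-124691304 (U7.85, minus), chr4:131825995-131826128 (U11.4, minus), chr15:82980074-82980224 (U12.3, plus), chr1:120355718-120355842 (U4atac.1, minus) and chr2:27395325-27395450 (U6atac.12, minus). U4atac.1 is in an intron of Clasp1 on the opposite strand. U7.85 overlaps an exon of Grcc10 and an intron of Atn1 on the same strand, so its reads cannot be told from theirs. The annotation places no other gene over U1.124, U2.10, U4.12, U11.4, U12.3 or U6atac.12.

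A count here is the number of reads of a short library placed on a row, and total counts were between 2064562 and 3253798 in SD mice and between 2159625 and 3092399 in WD mice. Counts were scaled to library size as CPM, with TMM factors. On that scale 3 counts, taken as the smallest abundance that can be shown, come to between 0.933 and 1.39 CPM, counting error only. Of the counts of a library, snRNAs took between 0.145% and 0.191% in SD mice and between 0.165% and 0.179% in WD mice. The means were 0.173% ± 0.0198 (standard deviation, n = 4) and 0.171% ± 0.00556 (standard deviation, n = 4), and the diets overlapped. The germ cell miRNAs of the testis were all listed, 7 of 7, at a summed level of 15366 to 18282 CPM in SD and 14996 to 19485 CPM in WD mice. The arms of miR-202, taken as a marker of gonadal somatic cells, were both listed, 2 of 2, at 3242 to 4292 CPM in SD mice and 4344 to 6989 CPM in WD mice, with every WD mouse above every SD mouse. Whether this bears on the snRNAs was not tested. Of the 4 blood miRNA names looked for 2 were listed, miR-451 and miR-144-3p, at 36.9 to 152 CPM in SD and 77.4 to 131 CPM in WD mice. The names miR-486-5p and miR-451a, the latter another name of miR-451, were not listed.

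Copies with the same sequence were listed with nearly the same counts. The most abundant U1 sequence, of 164 bases, has 7 annotated copies, all of which are listed, 5 on the plus and 2 on the minus strand of the genome. Over the 8 mice, the 5 plus-strand copies had between 572 and 582 counts, and the 2 minus-strand copies 346 and 348. Within each mouse, the variance of the counts of the plus-strand copies was between 0.00943 and 0.0507 of their mean. Counts of separate reads would have a variance near their mean. Whether the same reads were entered on several rows was not tested. The plus-strand copies of the U2.22 set had between 2042 and 2055 counts, and the minus-strand copy U2.14 had 1566, although all 4 sequences are the same. In the other U1 sets the plus-strand copies had 578, 561 and 121 to 124 counts and the minus-strand copies 373, 344 and 99. In U6, 43 annotated transcripts share 1 sequence, and 17 of them were listed, with 9 to 19 counts on the plus strand and 9 to 11 on the minus strand. Of all annotated plus-strand transcripts of these families 12.6% were listed, against 7.14% of those on the minus strand. Identical copies give the same RNA whatever their strand, so the tests below compare a row between mice. Where copies are set beside each other, this is a description, and a sum over a family may count a read more than once.

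**Figure D1:**
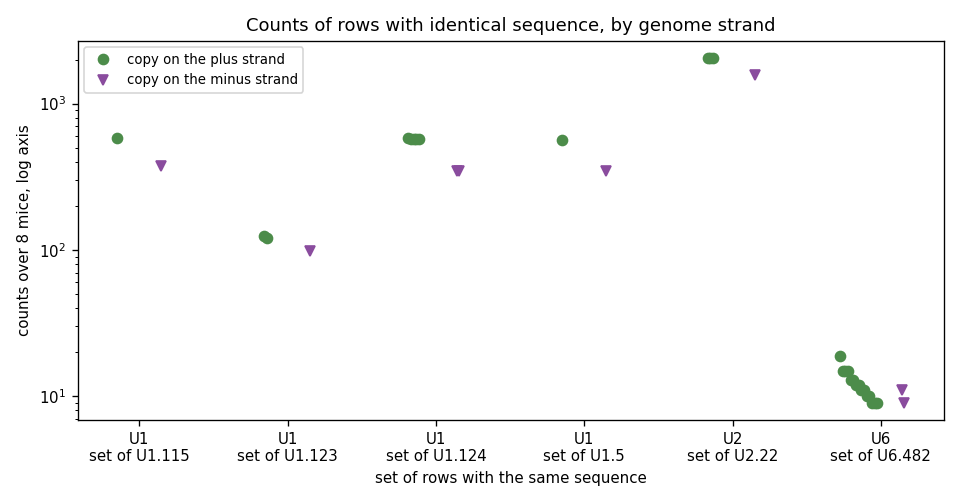
Counts over 8 mice, on a log axis, of rows with identical sequence, by set of copies and by genome strand (circles plus, triangles minus). In the U1 and U2 sets every plus-strand copy lies above every minus-strand copy (572 to 582 against 346 and 348 in the set of U1.124), whereas in the U6 set the counts of 9 to 19 and 9 to 11 overlap.

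Between the diets, 61 of the 144 rows had enough counts to be tested. Of these, 14 had an unadjusted p of 0.05 or less by edgeR's quasi-likelihood test, 8 higher and 6 lower in WD mice. This balance turned with the setting. It was 1 higher to 7 lower without M1W, 4 to 8 without M2N, 9 to 12 with no filter and 0 to 6 against TN1 and TN2 alone. It was 6 to 1 without M5W, 6 to 0 with at least 10 counts in every mouse, 8 to 2 by DESeq2 and 8 to 3 when libraries were scaled by column totals. Among all small RNAs tested, 707 were higher and 807 lower without M1W, 546 and 794 without M2N, and 1306 and 1435 with no filter. Against TN1 and TN2 alone 360 were higher and 264 lower, and without M5W 570 and 713. With at least 10 counts they were 1042 and 1129, by DESeq2 989 and 1206, and by column totals 1261 and 986. Beside the 14 of 61 snRNAs, the share over all 16955 small RNAs tested was 14.6%, 6.76% higher and 7.83% lower. Of the 14, 13 also changed at least 1.5-fold, and both criteria together took 8.71% of all small RNAs. Without M1N these counts were 7 and 3, with 0 of the 3 higher in WD mice, where 8.13% and 3.63% of all small RNAs met the criteria. After Benjamini-Hochberg adjustment over all small RNAs tested, 0 rows had an adjusted p under 0.05 in edgeR, as 0% of all small RNAs did, and also 0 by DESeq2 and by limma-voom, in which 10 and 16 rows had an unadjusted p up to 0.05 (16.4% and 26.2% of the snRNAs, against 12.9% and 14.8% of all small RNAs). The median log2 fold change was -0.17 for snRNAs and -0.01 for all small RNAs, and 20 of the 61 were positive. The snRNA median was -0.028 without M1N. The 14 rows were 5 of U1, all lower, 7 of U2 and 1 of U5, all higher, and 1 of U6atac, lower.

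The pair of SD mice used as control changed which rows differed. Against M1N and M2N alone, 13 of the 61 rows had an adjusted p under 0.05 in edgeR, as 21.4% of all small RNAs did, 11 of them higher and 2 lower in WD mice. Against TN1 and TN2 alone 0 had, as 0.0708% of all did, and 6 had an unadjusted p of 0.05 or less, where 3.68% of all did. All 6 of these were rows of U1 that were lower in WD mice. Both comparisons use the same 4 WD mice.

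**Figure D2:**
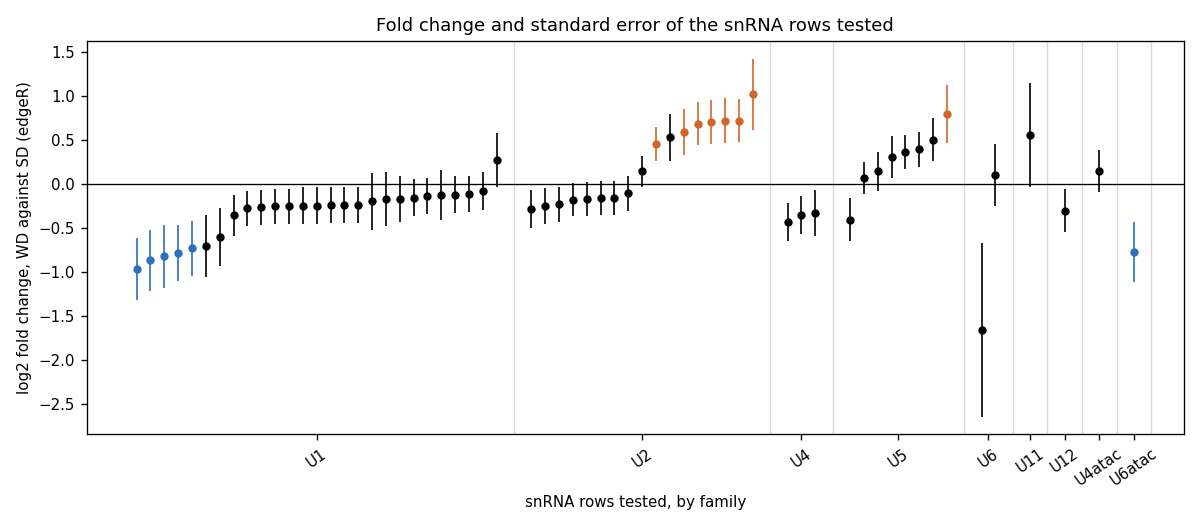
log2 fold change, WD against SD, of the 61 snRNA rows tested, grouped by family. Points are edgeR estimates, bars their standard errors, and colours mark an unadjusted p of 0.05 or less (orange higher, blue lower). The 5 blue U1 rows are the lowest of their family, and the 7 orange U2 rows lie between 0.45 and 1.02, with the uncalled U2.18 at 0.53 among them.

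U2 had the highest summed count of the snRNA families. U2.10 had 425, 266, 267 and 176 counts in M1N, M2N, TN1 and TN2, and 286, 194, 188 and 288 in M1W, M2W, M3W and M5W. Scaled, M1N stood at 146 CPM and the other SD mice between 81.5 and 84.8, against 85.1 to 94.01 in WD mice. The log2 fold change was -0.16 ± 0.19 (standard error, n = 4 and 4, edgeR adjusted p = 0.699). The other full copies U2.22, U2.4, U2.19, U2.23, U2.14, U2.3 and U2.7 likewise had their highest value in M1N, and their log2 fold changes lay between -0.28 and -0.11. Without M1N all 8 were between 0.015 and 0.14, so the sign rests on that mouse.

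Another set of U2 rows holds only the start of the molecule. Windows of 25 bases of U2.10 were looked for in each tested U2 row, with up to 2 mismatches, and 7 of the 17 rows held windows near the start alone: U2.24, U2.17, U2.28, U2.32, U2.18, U2.42 and U2.37. The 4 with the smallest p are shown to give where the likeness ends. Capitals run up to the first base that differs from U2.10 after base 20.
U2.24: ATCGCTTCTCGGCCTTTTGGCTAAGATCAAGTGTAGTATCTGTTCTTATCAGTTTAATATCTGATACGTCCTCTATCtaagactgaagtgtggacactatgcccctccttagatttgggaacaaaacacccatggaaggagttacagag
U2.17: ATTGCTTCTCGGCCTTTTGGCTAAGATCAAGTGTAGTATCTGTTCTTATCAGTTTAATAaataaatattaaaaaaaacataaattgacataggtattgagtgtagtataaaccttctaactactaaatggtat
U2.28: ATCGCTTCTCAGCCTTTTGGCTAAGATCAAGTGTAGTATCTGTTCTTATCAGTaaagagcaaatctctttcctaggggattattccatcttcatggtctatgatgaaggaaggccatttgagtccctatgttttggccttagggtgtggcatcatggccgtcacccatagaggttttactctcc
U2.32: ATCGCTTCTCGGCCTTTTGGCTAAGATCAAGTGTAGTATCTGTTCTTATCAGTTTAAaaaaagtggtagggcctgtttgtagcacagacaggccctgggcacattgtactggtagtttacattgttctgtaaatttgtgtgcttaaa

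They lie at chr1:157801704-157801852 in an intron of Cep350, chr15:48382854-48382986 in an intron of Csmd3, chr10:122869622-122869805 in an intron of Fam19a2, and chr5:124078210-124078356 in an intron of Clip1, all on the plus strand. The host gene is on the opposite strand except for Fam19a2. The capitals hold 77, 59, 53 and 57 bases, the branch point pairing sequence among them.

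U2.28 had 28, 54, 69 and 44 counts in M1N, M2N, TN1 and TN2, and 101, 56, 66 and 80 in M1W, M2W, M3W and M5W. In CPM the SD mice were between 9.60 and 21.7 and the WD mice between 24.6 and 33.2, so every WD mouse was above every SD mouse. The means were 17.2 ± 5.43 (standard deviation, n = 4) and 28.3 ± 4.25 (standard deviation, n = 4). The log2 fold change was 0.72 ± 0.24 (standard error), with an unadjusted p of 0.00926 and an adjusted p of 0.318 by edgeR's quasi-likelihood test. The exact permutation test of its log2(CPM + 1) gave p = 0.0286, two-sided, which is the smallest that 4 against 4 mice allow and is fixed by the lack of overlap, so it adds nothing to it, and the row was picked for its small p.

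The same order was seen in U2.24 (log2 fold change 0.68 ± 0.24), U2.17 (0.70 ± 0.25) and U2.32 (0.71 ± 0.26, standard errors), each with an edgeR adjusted p of 0.318. Their capitals share much of their length, so the 4 rows may hold the same reads and are not separate results. Rows in which every WD mouse was above every SD mouse made 5 of the 61, with U5.2 as the remaining one, and rows in which every WD mouse was below made 2. Over all small RNAs these shares were 3.01% and 2.68%, together 5.69%. The 2 rows with every WD mouse below are U6atac.12 and U1.103, of which U1.103 passed the filter on low counts through its SD mice alone.

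M1N was the lowest of the 8 mice in all 7 start-only rows, and the highest in 8 of the 10 rows that also hold later windows. It was also the lowest in 1 of those 10, the full-length U2.12. Against TN1 and TN2 alone the 7 rows had log2 fold changes between 0.17 and 0.42, and U2.28 had 0.42 (edgeR unadjusted p = 0.0648, adjusted p = 0.999). Against M1N and M2N alone they were between 0.97 and 1.93, and all 7 had an adjusted p under 0.05 in edgeR, as 21.4% of all small RNAs did. Without M1W, U2.24, U2.17 and U2.32 had an unadjusted p of 0.0578, 0.0603 and 0.0532 in edgeR.

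Set against U2.10 in the same library, where the scaling cancels, U2.28 had 6.59% of its counts in M1N, 20.3% in M2N, and at most 25.8% in TN1 and TN2. In the WD mice it had 35.3%, 28.9%, 35.1% and 27.8%. M1N was far below all other mice, and M2N next. U2.10 was itself highest in M1N (146 CPM, against 81.5 to 84.8 in the other SD mice), which lowers the share there. On this measure the diets also did not overlap in U2.24 and U2.32. They overlapped in U2.17 (6.59% to 27.3% in SD and 27.1% to 37.8% in WD mice), U2.18, U2.42 and U2.37. These shares are given as a description, since rows and mice were seen before they were computed.

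**Figure D3:**
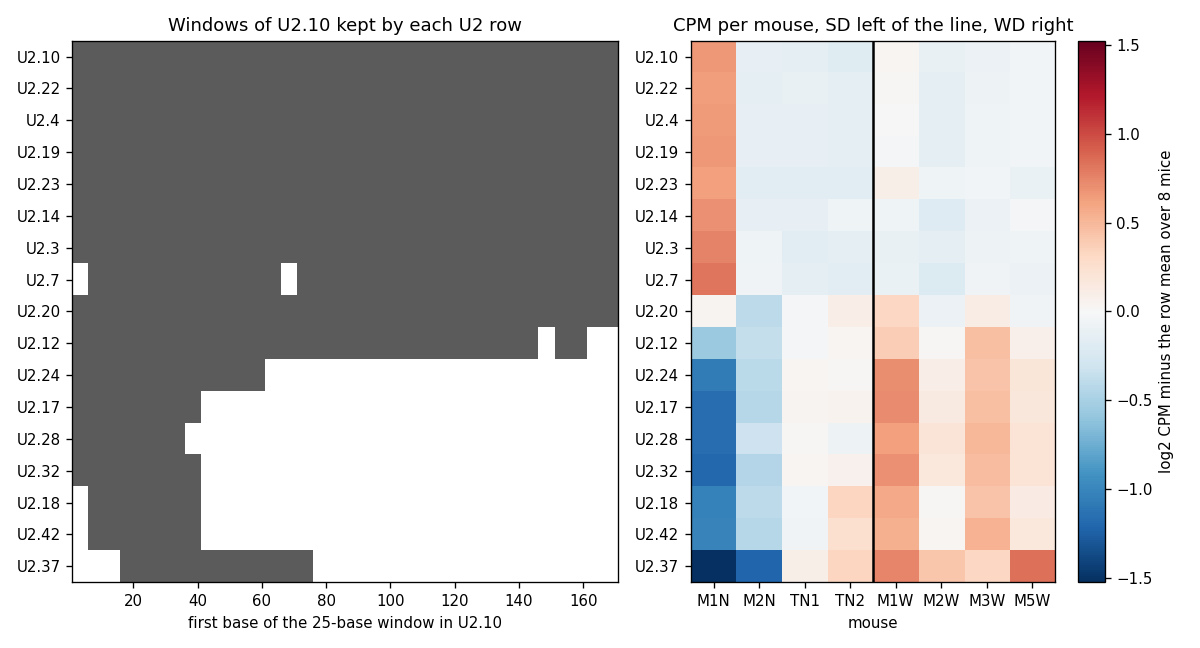
Left, windows of U2.10 found (grey) in each of the 17 U2 rows tested, by the first base of the window in U2.10. Right, log2 CPM of the same rows minus the row mean over 8 mice, by mouse (red above, blue below). The 7 rows at the bottom keep windows near the start only. M1N is lowest there and in the full-length U2.12, and highest in the 8 rows at the top.

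The full-length copies U2.20 and U2.12, chosen after their values were seen, were not highest in M1N, and U2.12 was lowest there. They are shown beside U2.7, which was highest in M1N and has 9 differences from U2.10, as many as U2.12. Capitals mark the bases at which each differs from U2.10.
U2.7: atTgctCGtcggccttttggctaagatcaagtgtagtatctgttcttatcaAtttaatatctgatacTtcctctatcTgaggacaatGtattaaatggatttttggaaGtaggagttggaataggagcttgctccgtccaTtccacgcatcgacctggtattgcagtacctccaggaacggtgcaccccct
U2.20: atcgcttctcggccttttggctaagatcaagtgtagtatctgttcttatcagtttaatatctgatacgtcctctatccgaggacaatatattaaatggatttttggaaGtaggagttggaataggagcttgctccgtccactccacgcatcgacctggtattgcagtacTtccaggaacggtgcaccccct
U2.12: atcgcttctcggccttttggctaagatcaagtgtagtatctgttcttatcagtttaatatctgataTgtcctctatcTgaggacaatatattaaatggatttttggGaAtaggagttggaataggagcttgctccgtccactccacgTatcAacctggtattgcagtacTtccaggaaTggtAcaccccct

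U2.20 differs from U2.10 by C109G and C170T, counted from the first base, U2.10 base first. It had 131, 104, 135 and 101 counts in M1N, M2N, TN1 and TN2, and 165, 93, 102 and 135 in the WD mice M1W, M2W, M3W and M5W. M1N had 30.8% of the count of U2.10 in the same library, and the other 7 mice 39.1% to 57.7%. C109G is shared by U2.22, whose count in M1N was 413, so the rows that differ by C170T alone had 131 and 413 counts there. U2.12 has 9 differences and 59, 73, 94 and 66 counts in the SD mice, and 118, 69, 89 and 102 in the WD mice. The fitted log2 difference was 0.45 ± 0.20 (standard error, edgeR unadjusted p = 0.0350, adjusted p = 0.328), and the diets overlapped.

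U1, the snRNA of the start of the intron, was represented by 27 tested rows, of which 26 had a negative log2 fold change. The median over the 27 was -0.25. U1.124 had 98, 68, 91 and 68 counts in M1N, M2N, TN1 and TN2, and 68, 71, 52 and 66 in M1W, M2W, M3W and M5W. The means were 28.9 ± 5.19 CPM and 24.5 ± 4.64 CPM (standard deviation, n = 4 each), with overlap, and the log2 fold change was -0.24 ± 0.21 (standard error, edgeR adjusted p = 0.564). Because its copies may share reads, the number of negative rows is not a number of separate results.

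The 5 U1 rows at an unadjusted p of 0.05 or less were low in count. U1.103, at chr10:9820751-9820914 with 15 differences from U1.124, had 12, 11, 14 and 7 counts in the SD mice and 8, 4, 3 and 6 in the WD mice. All WD mice were below all SD mice, at 1.38 to 2.63 against 3.24 to 4.41 CPM. Only its SD mice reached the level that the filter on low counts asks for, so the row entered the test through them. Its lack of overlap is therefore no support for a difference. The log2 fold change was -0.96 ± 0.36 (standard error), with an unadjusted p of 0.0158 and an adjusted p of 0.318 in edgeR, and DESeq2 gave an unadjusted p of 0.0506. In all, 3 of its alternatives gave an unadjusted p over 0.05, and 15 did not. The other 4, named after their values were seen, were U1.123 and U1.72, which have the same sequence, U1.52 and U1.21, with log2 fold changes between -0.87 and -0.73. U1.93, on the minus strand, has the sequence of U1.123 as well and was tested, but was not among the 5. In U1.123, TN1 and TN2 had 8.51 and 8.34 CPM, M1N 7.20 and M2N 4.46, against 3.23 to 5.59 in WD mice, so M2N lay among the WD mice.

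U5 aligns the exons in the spliceosome, and 9 of its 10 annotated genes were listed. Mice differed between its copies. U5.9 and U5.4 were chosen after their values were seen. U5.1 had 181, 211, 284 and 199 counts in M1N, M2N, TN1 and TN2, and 272, 130, 158 and 394 in M1W, M2W, M3W and M5W. The WD mice spanned 57.0 to 123 CPM and enclosed the SD mice, at 62.0 to 92.2 CPM, and the log2 fold change was 0.14 ± 0.22 (standard error, edgeR adjusted p = 0.764). U5.6 had 257, 162, 118 and 88 counts in the SD mice and 119, 102, 81 and 140 in the WD mice. M1N and M2N were highest, at 88.1 and 51.7 CPM, above 37.2 to 44.7 in every other mouse, and the log2 fold change was -0.40 ± 0.24 (standard error, edgeR adjusted p = 0.417).

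The order of the copies thus differed between mice. In M1N, U5.6 had 142% of the count of U5.1, and in the other 7 mice 35.5% to 78.5%. U5.9 had 29.7 to 31.2 CPM in M1N and M2N and 41.2 to 82.4 in the other 6 mice, with a log2 fold change of 0.50 ± 0.24 (standard error, edgeR unadjusted p = 0.0552, adjusted p = 0.349). Of the 8 U5 rows tested, 7 had a positive log2 fold change, and 1, U5.4, had an unadjusted p of 0.05 or less, at 0.79 ± 0.33 (standard error, edgeR adjusted p = 0.323). Against M1N and M2N alone 4 of the 8 had an adjusted p under 0.05 in edgeR, 3 higher and 1 lower, where 21.4% of all small RNAs had, and against TN1 and TN2 alone 0 had, where 0.0708% of all had.

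U4, which pairs with U6 until the spliceosome is activated, had 3 tested rows with log2 fold changes between -0.43 and -0.33. U4.12 had 90, 82, 59 and 40 counts in the SD mice and 60, 46, 38 and 53 in the WD mice. M1N and M2N were at 30.8 and 26.1 CPM, and the other 6 mice at 16.5 to 20.2, and the log2 fold change was -0.36 ± 0.22 (standard error, edgeR adjusted p = 0.424). Against TN1 and TN2 alone it was -0.01.

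U6 was the family with the most annotated genes, 936, of which 32 were listed and 2 tested. The tested rows, U6.734 and U6.511, are both of 103 bases and differ from each other at 59 of them when set side by side without gaps, and they are shown because they are diverged copies.
U6.734: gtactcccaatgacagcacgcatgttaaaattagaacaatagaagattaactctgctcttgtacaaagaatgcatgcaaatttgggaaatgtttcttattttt
U6.511: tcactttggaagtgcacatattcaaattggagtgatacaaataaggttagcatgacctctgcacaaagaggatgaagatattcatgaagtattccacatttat

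U6.734, at chr10:110566163-110566265, had 14, 20, 15 and 16 counts in the SD mice and 23, 17, 17 and 8 in the WD mice, with a log2 fold change of 0.10 ± 0.35 (standard error, edgeR adjusted p = 0.898). U6.511, at chr3:79638855-79638957 and described after its values were seen, had 61, 2, 15 and 8 counts in the SD mice and 0, 2, 22 and 0 in the WD mice. M1N held most of its counts, and the log2 fold change of -1.65 had a standard error of 0.98 (edgeR adjusted p = 0.417).

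Of the minor spliceosome, which cuts the rare U12-type introns, 9 rows were listed and 4 tested. U11 recognises the start of those introns. U11.4 had 33, 109, 89 and 117 counts in M1N, M2N, TN1 and TN2, and 57, 145, 222 and 20 in M1W, M2W, M3W and M5W. It spanned 6.22 to 102 CPM within the WD mice and 11.3 to 54.2 within the SD mice. As a ratio of highest to lowest, this was the widest range of the most abundant rows of the spliceosomal families. The fitted difference was 0.56 ± 0.59 on the log2 scale (standard error, edgeR adjusted p = 0.648). Without M3W the sign turned, to -0.14.

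U12 pairs with the branch point of the same introns. U12.3 had 77, 68, 41 and 36 counts in the SD mice and 37, 36, 35 and 61 in the WD mice. M1N and M2N were highest, at 26.4 and 21.7 CPM, against 12.2 to 19.0 in the other mice, and the log2 fold change was -0.30 ± 0.25 (standard error, edgeR adjusted p = 0.543). U12.1, U12.4 and U12.2 had between 0 and 11 counts in a mouse and were not tested. U11 and U12, which act as a di-snRNP, were thus highest in different mice, M3W and M1N.

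U4atac and U6atac form the minor counterpart of the U4 and U6 pair. U4atac.1 had 41, 48, 58 and 32 counts in the SD mice and 73, 32, 27 and 58 in the WD mice, with a log2 fold change of 0.15 ± 0.23 (standard error, edgeR adjusted p = 0.772). U6atac.12 had 13, 24, 14 and 11 counts in the SD mice and 13, 8, 5 and 8 in the WD mice. In CPM, every WD mouse was below every SD mouse, at 2.30 to 4.27 against 4.41 to 7.65, and the log2 fold change was -0.77 ± 0.34 (standard error), with an unadjusted p of 0.0382 and an adjusted p of 0.332 in edgeR. DESeq2 gave an unadjusted p of 0.0712, and without M2N the edgeR value was 0.153. In all, 9 of its 18 alternatives gave an unadjusted p over 0.05. U6atac.11 and U6atac.14 had at most 4 counts in a mouse.

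U7, which is outside the spliceosome, had 3 rows, none of them tested. U7.85 had 5, 1, 17 and 16 counts in the SD mice and 2, 0, 2 and 1 in the WD mice. TN1 and TN2 were thus apart from the other 6 mice, with M1N next. U7.76 and U7.64 had at most 5 counts in a mouse. Of the 6 rows without a family, FR066189 was the most abundant, with 10, 5, 12 and 7 counts in the SD mice and 4, 5, 4 and 6 in the WD mice.

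**Figure D4:**
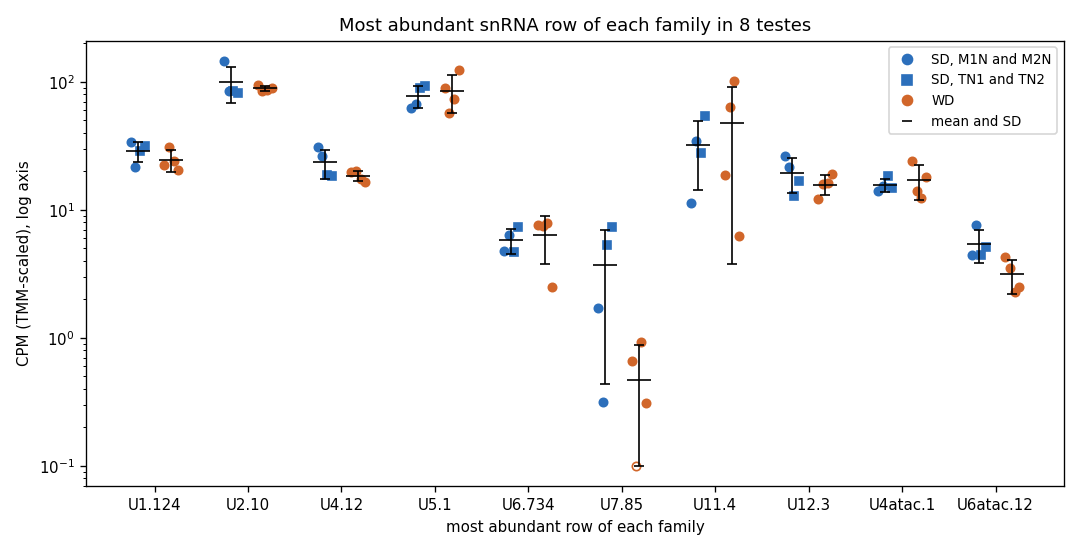
CPM, on a log axis, of the most abundant row of each family in each mouse (blue SD, with circles for M1N and M2N and squares for TN1 and TN2, orange WD). Bars are the mean and standard deviation of a diet, cut at 0.1, where an open circle marks 0 counts. U11.4 spans 6.22 to 102 CPM in WD mice, while U2.10 spans 85.1 to 94.01.

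Per 100 bases of transcript, mean levels over the 8 mice were 70.3 CPM for U5.1, 49.2 for U2.10, 29.8 for U11.4, 16.3 for U1.124, 14.9 for U4.12, 13.1 for U4atac.1, 11.6 for U12.3, 5.904 for U6.734, 3.39 for U6atac.12 and 3.36 for U7.85. This order is of reads on 1 row, in a library of short fragments, and it is not an order of intact molecules. U11.4 was above U1.124 on this scale in 6 of the 8 mice and below it in M1N and M5W. The highest of these rows was U5.1 in 6 mice, U2.10 in M1N (76.3 CPM per 100 bases, U5.1 53.5) and U11.4 in M3W (76.3, U5.1 62.8), so the order turned between mice.

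Summed over rows, U1 was at 445 ± 70.0 CPM in SD and 362 ± 52.9 in WD mice, U2 at 861 ± 190.0 and 845 ± 55.0, and U5 at 269 ± 22.7 and 301 ± 55.7 (standard deviation, n = 4 each). The diets overlapped in each of these. U6atac was the only family whose sums did not overlap between diets, at 6.726 ± 1.29 in SD and 4.08 ± 1.16 CPM in WD mice (standard deviation, n = 4 each). No test was made on the sums, which may count a read more than once.

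**Figure D5:**
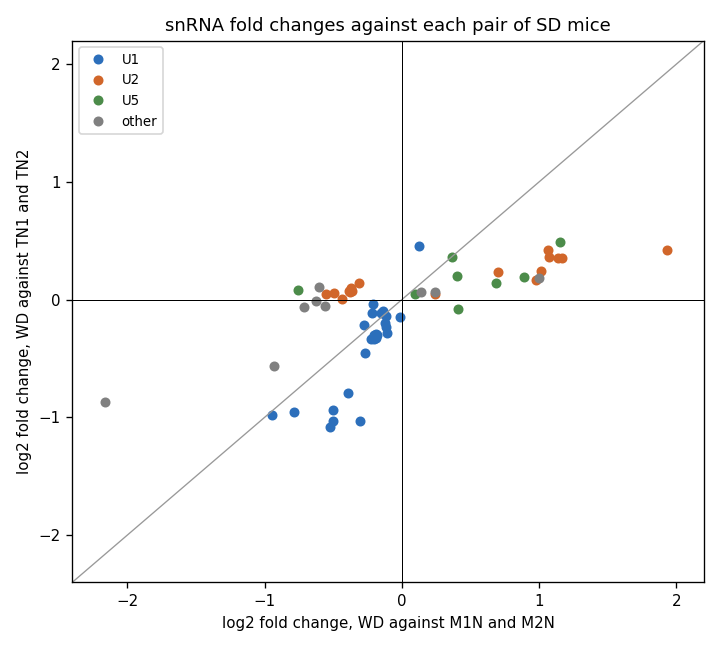
log2 fold change of the 61 snRNA rows against M1N and M2N (horizontal) and against TN1 and TN2 (vertical), coloured by family. Both axes use the same 4 WD mice. The 7 start-only U2 rows lie at 0.97 to 1.93 on the horizontal and at 0.17 to 0.42 on the vertical axis.

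The RNAs that guide chemical modification of snRNAs, such as the small Cajal body RNAs, were examined with other short nuclear RNAs. Of 13 guide RNAs listed 3 were tested, Snord67, Scarna17 and Scarna9, and of 7 Y and vault RNAs 4 were tested. In edgeR the smallest unadjusted p among these 7 was 0.147, so 0 reached 0.05 (14.6% of all small RNAs did), and 0 had an adjusted p under 0.05. Scarna17 had 31, 21, 16 and 11 counts in the SD mice and 8, 18, 11 and 15 in the WD mice, with a log2 fold change of -0.48 ± 0.36 (standard error, edgeR adjusted p = 0.513). Snord67, which guides a modification of U6, had 24, 13, 18 and 16 and then 22, 31, 17 and 20 counts, with 0.44 ± 0.32 (standard error, edgeR adjusted p = 0.491).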

How the data were processed

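Small RNA of 8 testes was sequenced on a SOLiD instrument. Per the study's methods and the submitters' processing notes, the authors trimmed the reads, placed them on mm9 using Bowtie (up to 2 mismatches), and took annotation from miRBase, Rfam and a non-coding RNA database. They deposited whole-number counts per small RNA and mouse, without normalisation. How reads with several matches were counted is not given in the sources used here. The lowest total of a listed row was 9.

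Here, counts of all 20558 small RNAs were scaled with TMM and tested with edgeR 4.0.16 (R 4.3.3; quasi-likelihood, two-sided, default filter on low counts, diet as the only term), and p-values were adjusted by Benjamini-Hochberg over the 16955 tested. DESeq2 1.42.0, limma-voom 3.58.1, other scalings and filters, each SD pair and each mouse left out were alternatives. The code of the fit was run on simulated counts as a check, whose outcome is not reported here. Mice sharing a name number did not deviate together in 1 of the 2 pairs (M1N and M1W -0.08, M2N and M2W 0.24), so no block was used. The labels give each column as a separate animal.

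Sequences and positions are of NCBIM37 with the GENCODE M1 annotation, in which all 138 Ensembl names were found. Named are the most abundant row of each family, all U7 and minor spliceosome rows, the 10 most abundant rows, the 5 with the smallest p and any with an adjusted p under 0.05. The members and lists were chosen with earlier results of these data known. Some snRNA sequences are not reported here.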

Additional observations from a re-analysis of the deposited data

Results flagged for a closer look

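In groups of 4 mice, a mouse was singled out where its gap to the nearest of the others was over Dixon's critical value, as a share of the range of the group. Of 86 groups examined, 10 held such a mouse, where about 4.3 are expected by chance. The copies of a family are not separate results.

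In SD mice M1N stood above the other 3 in 8 U2 rows. The gap was 0.949 of the range in U2.10 (146 CPM against 81.5 to 84.8), 0.970 in U2.22, 0.980 in U2.4, 0.977 in U2.19, 0.984 in U2.23, 0.950 in U2.14, 0.912 in U2.3 and 0.914 in U2.7 (104 CPM against 52.3 to 56.8). In the sum over U2 rows it was 0.886 (1145 CPM against 738 to 784). In WD mice M5W stood below the other 3 in U6.734, with a gap of 0.929 of the range (2.49 CPM against 7.45 to 7.83).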

How the results depend on the processing

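Shares in brackets are of the snRNAs tested and then of all small RNAs tested in that setting. The count of snRNAs at an unadjusted p up to 0.05, 14 of 61 (23.0%, 14.6%), became 6 of 46 with at least 10 counts in every mouse (13.0%, and 2171 of 14434), 6 of 61 against TN1 and TN2 alone (9.84%, 3.68%), and 7 to 15 of 61 with a mouse left out: 7 without M1N (11.5%, 8.13%) or M5W (11.5%, 7.57%), 8 without M1W (13.1%, 8.93%) and 9 without M3W (14.8%, 11.3%). With a fold change of 1.5 or more, 13 of 61 (21.3%, 8.71%) became 20 of 144 with no filter (13.9%, 8.45%), 5 of 46 with at least 10 counts (10.9%, 8.12%), 6 of 61 against TN1 and TN2 (9.84%, 1.99%), and 3 to 12 with a mouse left out: 3 without M1N (4.92%, 3.63%), 6 without M5W (9.84%, 5.56%) and 8 without M1W (13.1%, 6.69%). The count at an adjusted p under 0.05, 0 in edgeR (14 at an unadjusted p of 0.05 or less; 0 by DESeq2), was 13 against M1N and M2N (21.3%, 21.4%) and 5 with a replicate block on the shared name numbers (8.2%, 6.8%), in which the mice share only a number. The block left the count at an unadjusted p at 14 (23.0%, 22.5%). TN1, TN2, M3W and M5W share a number with no other mouse, so the block compared the diets in M1N, M2N, M1W and M2W alone. It is no check on all 8 mice.

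The median log2 fold change lay between -0.24 and -0.03 with a mouse left out. The count of guide and other nuclear RNAs, 0 of 7, was 2 against M1N and M2N (36.1% of all small RNAs) and 0 to 1 with a mouse left out (1 without M2W, 15.1% of all). The difference in snRNA share, -0.00137 percentage points, was -0.0378 of counts outside the piRNA class. Family sums moved beyond the spread between mice in 5 of 130 values: U4 to -0.12 and U12 to 0.26 against TN1 and TN2, U7 to 0.31 against M1N and M2N, and U6 to 0.12 and U7 to -2.97 with the most abundant row in place of the sum.

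Of 415 values of named rows under alternatives, 25 changed sign, 19 lost and 10 gained an unadjusted p of 0.05 or less. Against TN1 and TN2 the sign turned in U2.10 (0.10), U2.22 (0.075), U2.4 (0.068), U2.19 (0.070), U2.23 (0.14), U2.14 (0.0081), U2.3 (0.057), U2.7 (0.048), U5.1 (-0.076), U5.6 (0.085) and U12.3 (0.11). With a mouse left out, ranges were -0.24 to 0.092 in U2.10, -0.23 to 0.077 in U2.22, -0.25 to 0.067 in U2.4, -0.25 to 0.068 in U2.19, -0.18 to 0.14 in U2.23, -0.31 to 0.017 in U2.14, -0.34 to 0.027 in U2.3 and -0.38 to 0.015 in U2.7, turning without M1N. They were -0.084 to 0.30 in U5.1 (without M5W), -0.14 to 0.94 in U11.4 (without M3W), -0.063 to 0.27 in U4atac.1 (without M1W) and -0.017 to 0.40 in U6.734 (without M1W or M3W). U6.734 was at -0.023 with limma-voom. The causes were not tested. Rows with under about 10 counts in some mice, such as U1.103 and U6atac.12, have a large counting error there.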
